A study of Homo sapiens with 48 samples.

Results

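The genes described here make up the protein-folding and quality-control machinery of the endoplasmic reticulum (ER): chaperones, disulfide-forming enzymes, the translocation channel and ER-associated degradation. The list held 41 genes, and each was measured by its probe set of highest mean among those annotated to that gene alone. Of the 41 genes, 37 had such a probe set, and all 37 passed the low-value filter (above log2 4 in at least 3 arrays), out of 11356 genes that did. PDIA5, SYVN1 and TXNDC5 were measured only by probe sets annotated to several genes, SEC61G had no annotated probe set, and none of these 4 was analysed.

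HK-2, a human kidney cell line immortalised from proximal tubular epithelium, was profiled on 48 arrays in 16 groups of 3 biological replicates. The CsA set held cells given CsA for 12 h and 48 h and vehicle cells of both times, and its labels alone carry the words lab 3. The Fk and Ra set held cells given Fk for 12 h and 48 h, cells given Ra for 12 h and 48 h, and vehicle cells of both times, shared by Fk and Ra. The Nnm set held cells given a low or a high dose of Nnm for 24 h and 48 h and vehicle cells of both times, shared by both doses. All cells were plated a day before treatment and treated near confluence, in medium with EGF, hydrocortisone, insulin, transferrin and selenite. What the compound names stand for, how much was given and what the vehicle was is not stated in the labels, so compounds are compared at matched times and not at known doses, and the 3 sets differ in more than the compound. As 1 immortalised line, HK-2 stands for the tubule with limits. Of 16 proximal tubule markers, 15 had a probe set of their own and 5 passed the filter (GGT1, DPP4, PAX8, CDH6 and GPX3). GGT1 did so at a mean level of 3.94, under log2 4. LRP2, CUBN, AQP1 and SLC34A1, which define that segment, did not pass the filter. All 5 epithelial markers passed it, as did 3 of 6 fibroblast markers (COL1A1, LUM and DCN) and 1 of 5 endothelial markers (PECAM1, mean level 4.38). Of 5 leukocyte markers, 3 had a probe set of their own and 0 passed.

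As background, proteins enter the ER through the SEC61 channel, are folded by HSPA5 and its partners, are glycosylated and disulfide-bonded, and are withdrawn to the proteasome if they fail to fold. When unfolded proteins build up, 3 sensors of the ER membrane, ERN1, EIF2AK3 and ATF6, start the unfolded protein response, whose factors XBP1, ATF6 and ATF4 raise transcription of many of these genes. Proximal tubule cells carry a heavy load of membrane proteins, and this response is a known part of tubular injury by drugs.

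Levels below are log2 values as deposited, given array by array in the order of replicates 1, 2 and 3 or as mean ± SD (n = 3). Changes are log2 differences ± SE from a limma fit over all 48 arrays, and a call means an adjusted p (Benjamini-Hochberg) under 0.05 over the 11356 genes of that comparison. The median SE of a member's difference between groups was 0.30, and the number of arrays limits the precision. In RNA of whole cultures, fewer expressing cells and less RNA per cell cannot be told apart. Levels of different genes come from different probes and are not set against each other.

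Some arrays stood apart. The upper quartile of all probe sets was 6.20 in Ra 48 h replicate 2, against 6.85 in Fk 12 h replicate 3, the next lowest, and up to 7.24 elsewhere. At 48 h in the Fk and Ra set, replicate 3 had low ER genes in Fk and vehicle cells: the median of the 37 genes was 12.33, 11.53 and 10.67 in Fk cells, 10.69, 9.75 and 10.64 in Ra cells and 12.22, 11.66 and 10.70 in vehicle cells. In the CsA set at 48 h it was 12.25, 12.71 and 12.64 in CsA cells and 10.89, 12.36 and 12.14 in vehicle cells, where replicate 1 was low. The 3′ minus 5′ signal of ACTB, a measure of RNA integrity, ran from 0.71 to 1.44 over all arrays and was 1.02, 1.32 and 1.06 in Ra 48 h arrays and 1.36, 1.32 and 1.09 in vehicle 48 h arrays of that set. Counts that move by over 1.5 times without 1 of these arrays, and medians that do, are given both ways.

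**Figure D1:**
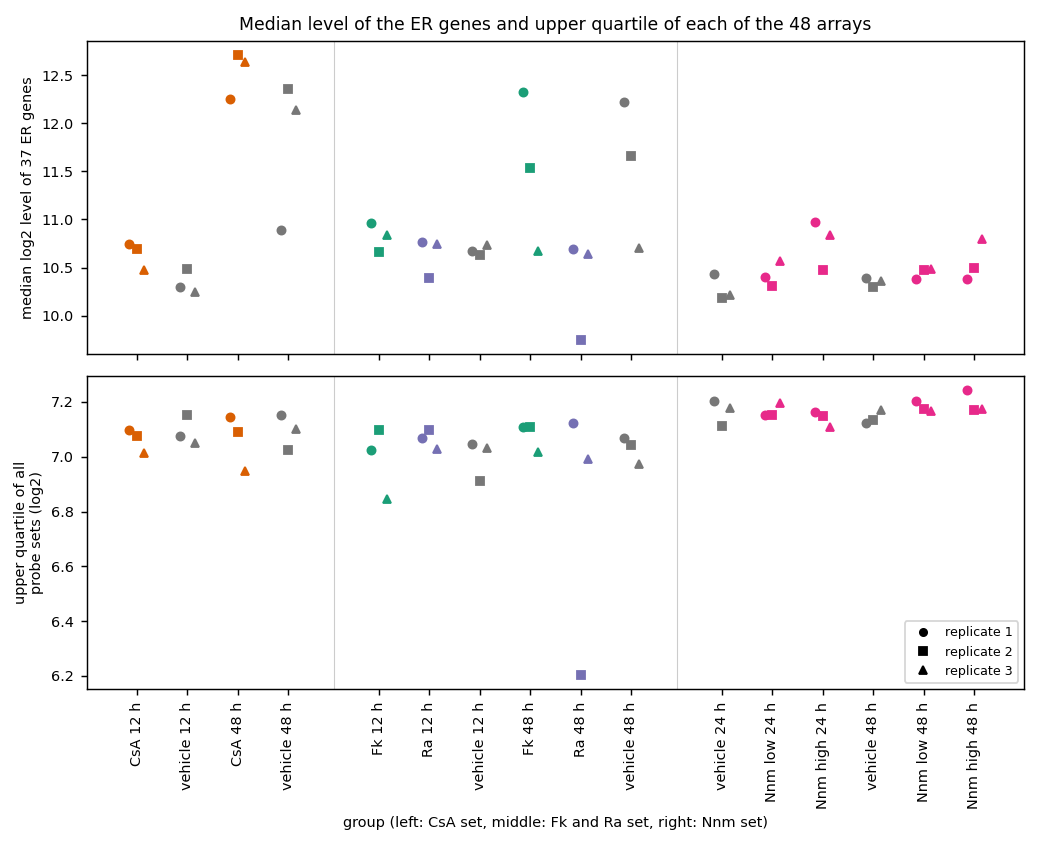
Median log2 level of the 37 ER genes (upper panel) and upper quartile of all probe sets (lower panel, log2) on each of the 48 arrays, with a symbol per replicate and groups along the horizontal axis. At 48 h the medians ran from 12.25 to 12.71 in CsA cells and from 10.89 to 12.36 in their vehicle cells. In the Fk and Ra set they ran from 10.67 to 12.33 in Fk, 9.75 to 10.69 in Ra and 10.70 to 12.22 in vehicle cells. Nnm-set arrays of that time lay between 10.30 and 10.80. Ra 48 h replicate 2 had the lowest upper quartile (6.20).

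The promoters of these genes were searched for elements that the factors of the unfolded protein response are known to bind. Windows ran from 250 bases before to 50 after a start listed for the gene (RefSeq, GRCh38.p14). For CANX the window (chr5:179698679-179698978, plus strand) lies inside the gene, whose first listed base is 179678656. Of the 41 genes, 38 had a window, and DERL1, DERL3 and PDIA3 had no entry. The ER stress response element, CCAAT and CCACG separated by 9 bases on either strand, is bound by ATF6 with the factor NF-Y, and 6 of the 38 windows held it (HSPA5, HSP90B1, CRELD2, CALR, CANX and ERO1B), against 22 of all 27305 windows (0.0806%). The second form, ATTGG and CCACG separated by 1 base, stood in HYOU1, SDF2L1 and HERPUD1, against 15 of 27305 (0.0549%). Several of these genes are among those on which the elements were first described, so the counts are not independent of that history. TGACGTG, a core bound by XBP1 and ATF6, was held by 3 windows (HYOU1, DNAJC10 and SEC62), against 2% of all, and in HYOU1 it overlaps the second form. TTGCATCA, a site for CHOP with ATF4, was held by HERPUD1, against 0.923% of all. A match is a description of letters and not proof of a site.

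The windows of the 5 genes below are shown because these genes had some of the changes described next and hold 1 of the 2 forms. Each is printed 5′ to 3′ on the gene's strand, in lower case, with the paired letters of the element in capitals. The element began 66 bases before the start of HSPA5 (chr9:125241294-125241593, minus strand), 194 and 89 bases before that of HSP90B1 (chr12:103930160-103930459, plus strand), 185 and 79 before that of HYOU1 (chr11:119057156-119057455, minus strand), 188 before that of SDF2L1 (chr22:21642052-21642351, plus strand) and 117 before that of HERPUD1 (chr16:56931892-56932191, plus strand). The element is on the opposite strand, and so reads in reverse complement, in HYOU1, SDF2L1 and the nearer copy in HSP90B1.
HSPA5: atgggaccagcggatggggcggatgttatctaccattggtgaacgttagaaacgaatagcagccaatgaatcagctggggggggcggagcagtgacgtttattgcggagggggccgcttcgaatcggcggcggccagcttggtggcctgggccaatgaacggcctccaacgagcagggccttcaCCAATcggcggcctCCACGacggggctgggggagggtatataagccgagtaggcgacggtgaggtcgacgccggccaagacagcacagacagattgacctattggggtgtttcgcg
HSP90B1: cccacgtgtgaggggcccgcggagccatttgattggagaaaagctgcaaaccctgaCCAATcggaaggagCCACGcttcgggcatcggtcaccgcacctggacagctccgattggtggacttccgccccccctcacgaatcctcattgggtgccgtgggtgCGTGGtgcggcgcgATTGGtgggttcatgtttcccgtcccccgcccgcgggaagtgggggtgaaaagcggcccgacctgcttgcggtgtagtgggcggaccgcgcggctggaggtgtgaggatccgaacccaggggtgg
HYOU1: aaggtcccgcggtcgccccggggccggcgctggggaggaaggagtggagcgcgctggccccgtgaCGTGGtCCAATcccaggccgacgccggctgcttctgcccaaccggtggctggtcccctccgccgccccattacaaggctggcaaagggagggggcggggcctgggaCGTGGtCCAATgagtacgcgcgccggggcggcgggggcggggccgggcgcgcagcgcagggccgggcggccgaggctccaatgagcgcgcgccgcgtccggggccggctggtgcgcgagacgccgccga
SDF2L1: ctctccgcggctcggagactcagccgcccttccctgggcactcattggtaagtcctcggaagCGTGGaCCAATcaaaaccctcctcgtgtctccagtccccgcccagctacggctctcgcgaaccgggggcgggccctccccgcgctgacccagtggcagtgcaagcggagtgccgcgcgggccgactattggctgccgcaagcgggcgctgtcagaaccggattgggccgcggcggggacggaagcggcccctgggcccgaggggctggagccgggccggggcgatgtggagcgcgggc
HERPUD1: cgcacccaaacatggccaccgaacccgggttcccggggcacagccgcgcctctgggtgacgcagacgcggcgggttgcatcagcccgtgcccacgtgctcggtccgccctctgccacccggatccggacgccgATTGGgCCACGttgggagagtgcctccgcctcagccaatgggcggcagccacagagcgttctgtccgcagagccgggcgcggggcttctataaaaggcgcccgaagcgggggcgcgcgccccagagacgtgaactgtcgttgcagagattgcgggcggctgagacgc

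Many ER genes rose with culture time in vehicle cells, and these comparisons ask how far the baseline itself moved. In vehicle cells of the CsA set 21 of 37 genes rose at 48 h against 12 h and 0 fell, where 6.12% of all genes rose. The members' median difference was 0.80, against -0.01 over all genes tested. Blocking on the replicate number gave 26 genes that rose, where 11.1% of all genes did. Of 3 fibroblast markers 1 fell (list median -0.55), and its part in the result was not tested. HSPA5, the main Hsp70 chaperone of the ER lumen, stood at 14.83, 15.40 and 15.56 at 48 h, against 13.06, 13.09 and 12.79 at 12 h. All arrays of 48 h lay above all of 12 h, a difference of 2.28 ± 0.32 (adjusted p = 3.34e-05). HERPUD1, a membrane protein of the degradation complex, had 13.08, 13.60 and 13.69 at 48 h, against 10.12, 10.39 and 9.67 at 12 h. This difference of 3.40 ± 0.50 also left the groups apart (adjusted p = 4.49e-05).

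Among the groups of genes, the Hsp70 and Hsp90 group of chaperones and their partners had the highest median difference, 2.22, with 10 of 11 members called. DNAJB9, a J-domain partner of HSPA5 in degradation, had 12.22 ± 0.49 at 48 h, against 8.91 ± 0.15 at 12 h, a difference of 3.31 ± 0.53 (adjusted p = 0.000178). SDF2L1, a partner of the co-chaperone DNAJB11, had 9.47, 11.31 and 11.19 at 48 h, against 6.91, 6.95 and 6.90 at 12 h (3.74 ± 0.89, adjusted p = 0.00522). HYOU1, a large Hsp70-related exchange factor, differed by 2.47 ± 0.53. ERO1B, an oxidase that recharges disulfide isomerases, had 7.45, 9.08 and 9.18 at 48 h, against 4.43, 4.58 and 4.59 at 12 h (4.03 ± 0.79, adjusted p = 0.00101). SEL1L, the adaptor of the degradation ligase, differed by 2.36 ± 0.43 and UFM1, a ubiquitin-like modifier that marks ribosomes at the ER, by 1.29 ± 0.20. Translocation genes gave 2 calls among 7 (median 0.52), and SEC61B, a small subunit of the channel, had 12.09, 12.65 and 12.41 at 48 h, against 12.15, 12.15 and 12.27 at 12 h, with overlapping groups (0.19 ± 0.17, adjusted p = 0.52).

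In vehicle cells of the Fk and Ra set 15 of 37 genes rose at 48 h against 12 h and 0 fell, where 10.1% of all genes rose, and the members' median was 0.63. That median was 0.35 without vehicle 48 h replicate 1 and 1.04 without replicate 3. HSPA5 had 15.68, 15.66 and 14.53 at 48 h, against 14.05, 13.15 and 13.77 at 12 h, and the groups did not overlap (1.64 ± 0.32, adjusted p = 0.000599). DNAJB9 differed by 3.13 ± 0.53, HERPUD1 by 3.08 ± 0.50, SEL1L by 1.87 ± 0.43, HSP90B1, the Hsp90 of the ER, by 0.89 ± 0.30 and UFM1 by 1.05 ± 0.20, all called. ERO1B was called at 3.07 ± 0.79, with 12 h arrays under log2 4 (3.19, 3.71 and 3.52), so the size is uncertain. SDF2L1 was not called: its 48 h arrays read 12.22, 11.08 and 6.99, and the last lay inside the 12 h values of 8.31, 7.07 and 8.03 (2.30 ± 0.89, adjusted p = 0.0643). DNAJC3, a co-chaperone and inhibitor of EIF2AK3, likewise had 11.06, 9.95 and 7.66 at 48 h, against 8.43, 8.14 and 7.44 at 12 h (1.56 ± 0.57, adjusted p = 0.0511).

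The counts moved with a few arrays. In the CsA set 10 genes were called without vehicle 48 h replicate 2, and 15 to 26 without any of the others. In the Fk and Ra set 7 were called without vehicle 48 h replicate 1 and 26 without replicate 3. HSPA5, DNAJB9, HERPUD1, SEL1L and UFM1 were called in both sets whichever array was left out. In vehicle cells of the Nnm set, compared at 48 h and 24 h, 0 of 37 genes were called by limma, 0 had an unadjusted p under 0.05, and 0% of all genes were called. The largest differences there were those of SDF2L1 (-0.82 ± 0.89), HERPUD1 (0.67 ± 0.50) and DNAJB9 (0.63 ± 0.53). The earlier times differ, 24 h there and 12 h in the other sets, so the sets are not compared directly.

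**Figure D2:**
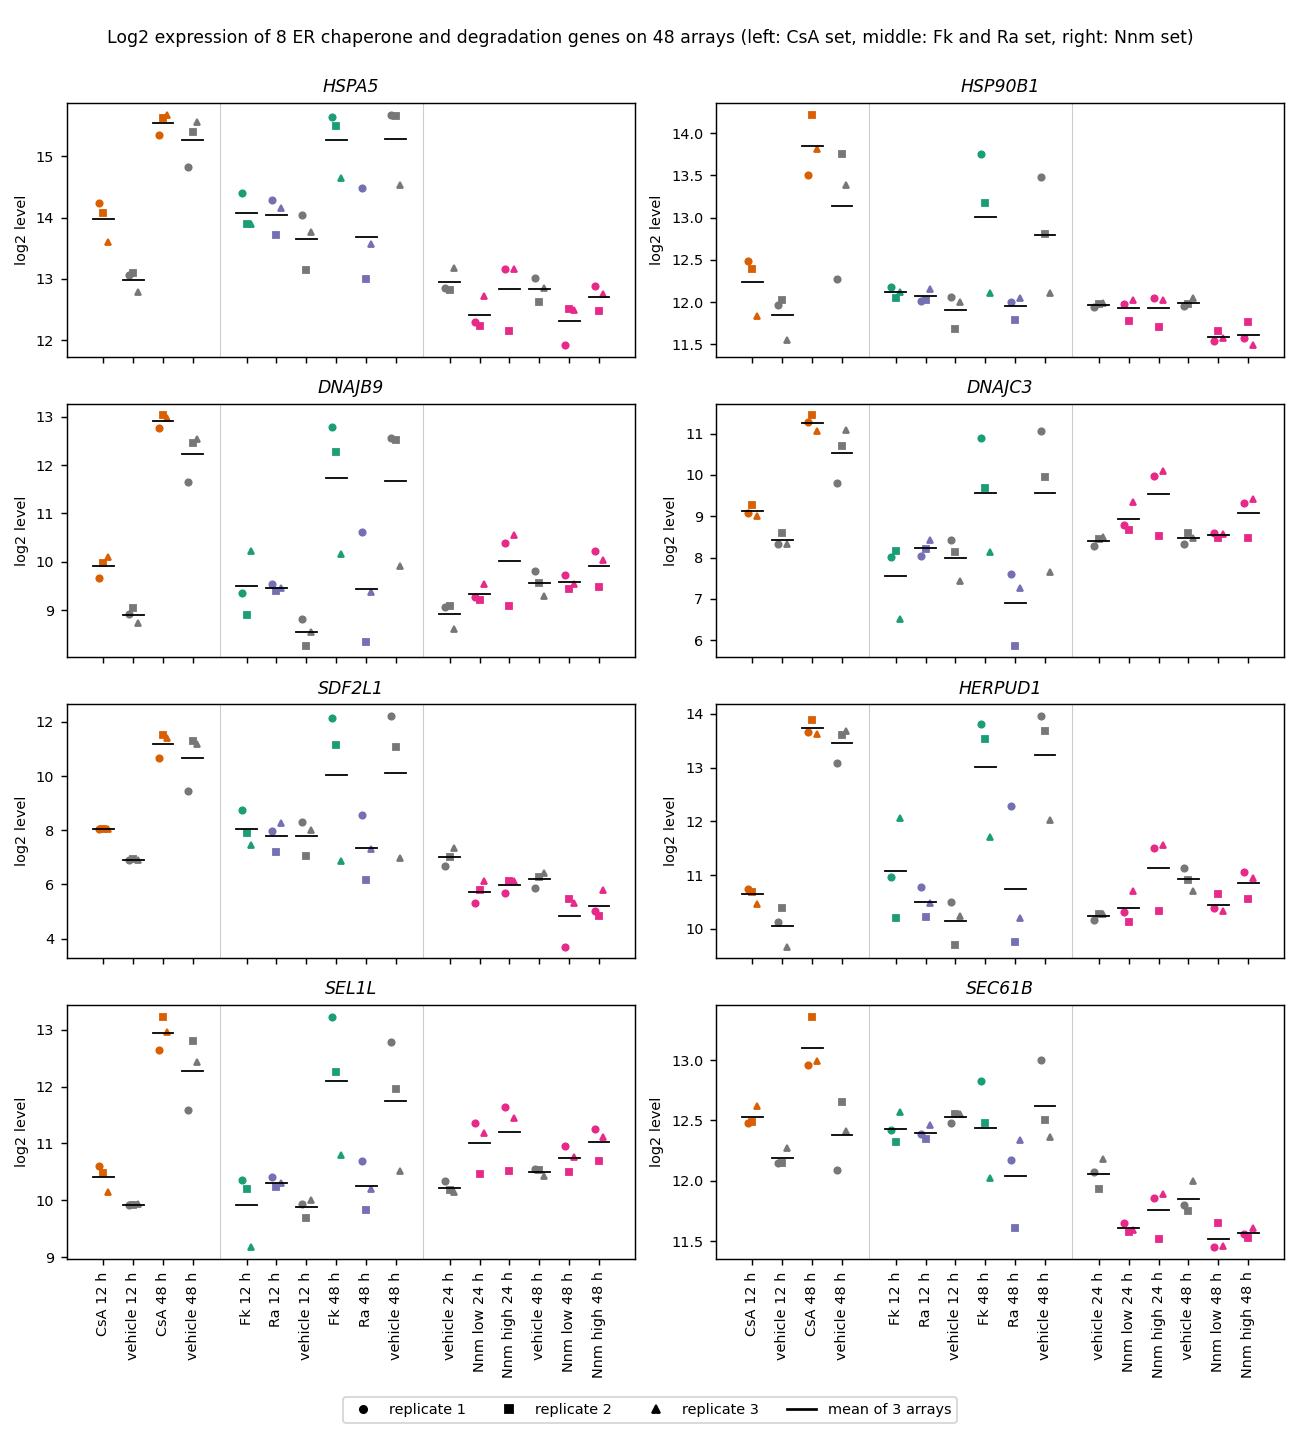
Log2 level of 8 ER genes on every array, by group, with a symbol per replicate and a line at the mean of 3 arrays; treated groups are coloured and vehicle groups grey. HSPA5 lay between 13 and 14.48 in Ra 48 h cells, against 14.53 to 15.68 in vehicle cells of that time and set, and stayed between 11.92 and 13.18 in the Nnm set.

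The treated cells showed the same interval with other counts; these 3 comparisons were chosen after the data were seen. In CsA cells 33 of 37 genes rose at 48 h against 12 h, where 13.1% of all genes rose, with a median of 1.26. In Fk cells 17 rose, where 11.6% of all genes rose, with a median of 0.61, which was 0.38 without Fk 48 h replicate 1 and 0.93 without Fk 48 h replicate 3. The count was 6 without Fk 48 h replicate 1 and 11 without Fk 12 h replicate 2 or replicate 3. In Ra cells 0 of 37 genes were called by limma, 3 had an unadjusted p under 0.05, the median was -0.22, and 1.23% of all genes were called. HSPA5 had 14.48, 13.00 and 13.57 in Ra cells at 48 h, against 14.29, 13.71 and 14.15 at 12 h (-0.37 ± 0.32, 95% interval -1.03 to 0.29). Without Ra 48 h replicate 2 the members' median in Ra cells was 0.0159 and the count was again 0. In each of these 3 comparisons 1 of 3 fibroblast markers fell, with list medians of -0.80 in CsA, -0.92 in Fk and -0.86 in Ra cells, and in CsA cells 1 of 5 proximal tubule markers fell. Their part in the results was not tested.

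**Figure D3:**
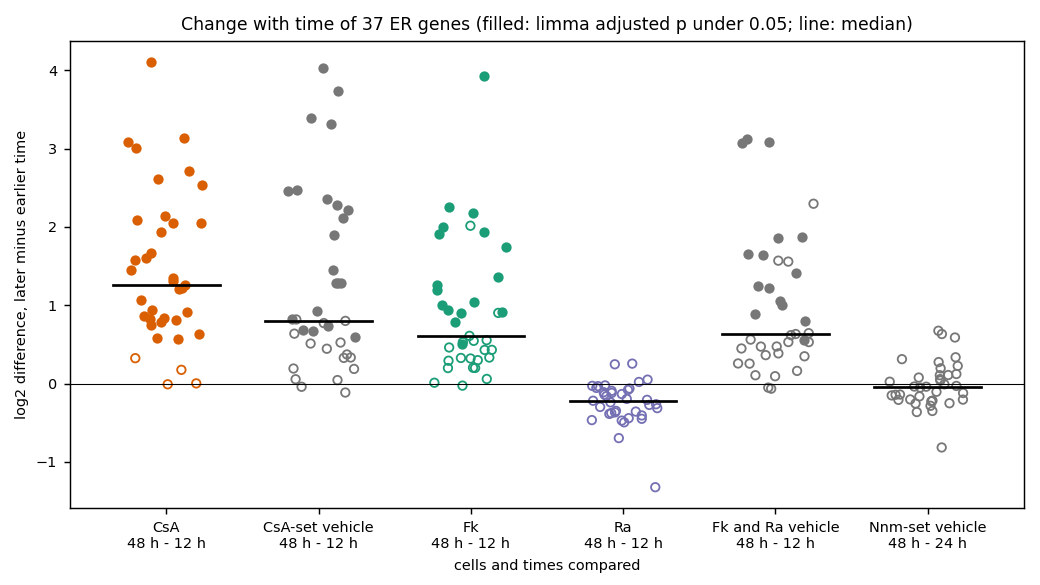
Log2 difference between the later and the earlier time for each of the 37 ER genes (points; filled where the limma adjusted p is under 0.05) in treated and vehicle cells, with the median as a line. Medians were 1.26 in CsA cells and 0.80 in their vehicle cells, 0.61 in Fk cells, -0.22 in Ra cells and 0.63 in the vehicle cells of both.

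Ra at 48 h was the treatment with the most called members. Against vehicle, 26 of 37 genes fell and 0 rose, where 15.6% of all genes fell. The members' median difference was -0.85, against -0.18 over all genes tested. Calls were spread unevenly over the groups of genes: 11 of 11 in the Hsp70 and Hsp90 group, 1 of 3 lectin chaperones and folding sensors, 2 of 6 disulfide enzymes, 6 of 9 degradation genes, 5 of 7 translocation genes, and UFM1. Medians in the same order were -1.61, -0.67, -0.62, -1.04, -0.60 and, for UFM1, -1.25. The lectin, disulfide and translocation groups thus differed in their share of calls at near-equal medians. With arrays centred on their medians, 11 genes were called with a median of -0.60, and the median of all genes was 0.07. Centring ended the calls of HSP90B1, SIL1, DNAJB11, DNAJC10, CRELD2, UGGT1, PDIA6, DERL1, DERL2 and SELENOS. It also ended those of every called translocation gene: SEC61A1, SEC61B, SEC62, SEC63 and SSR3. A fit of the Fk and Ra set alone, with its own spread, called 5 members, all lower, where 785 of all genes fell.

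HSPA5 had 14.48, 13.00 and 13.57 in Ra cells, against 15.68, 15.66 and 14.53 in vehicle cells. Every Ra array lay below every vehicle array, by a narrow margin at the nearest pair, and the mean was 3.05-fold lower (-1.61 ± 0.32, adjusted p = 0.00102). DNAJC3 had 7.60, 5.87 and 7.26 in Ra cells, against 11.06, 9.95 and 7.66 in vehicle cells, again without overlap (-2.65 ± 0.57, 6.29-fold lower, adjusted p = 0.00181). The SDs of these groups were 0.92 in Ra cells and 1.73 in vehicle cells. The SE rests on the spread shared by all 16 groups and not on these SDs alone. UFM1 had 9.89, 9.40 and 9.93 in Ra cells, against 11.38, 11.11 and 10.47 in vehicle cells, with a gap at every array (-1.25 ± 0.20, 2.38-fold lower, adjusted p = 0.000134).

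HERPUD1 had 12.29, 9.75 and 10.20 in Ra cells, against 13.96, 13.69 and 12.03 in vehicle cells. The highest Ra array passed the lowest vehicle array, so the groups overlapped, with a difference of -2.48 ± 0.50 (adjusted p = 0.001). HSPA5, DNAJC3, HERPUD1 and UFM1 were the 4 genes called whichever of the 6 arrays was left out, and all 4 were also called with centred arrays.

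The other members of the Hsp70 and Hsp90 group were called, but not whichever array was left out. SDF2L1 had the largest difference of all members, -2.75 ± 0.89 (adjusted p = 0.0287), with 8.58, 6.16 and 7.31 in Ra cells, against 12.22, 11.08 and 6.99 in vehicle cells. Its lowest vehicle array lay among the Ra arrays. DNAJB9 had 10.61, 8.33 and 9.37 in Ra cells, against 12.57, 12.51 and 9.92 in vehicle cells, and the groups overlapped (-2.23 ± 0.53, adjusted p = 0.00388). HSP90B1 had 12.00, 11.79 and 12.05 in Ra cells, against 13.48, 12.81 and 12.11 in vehicle cells, apart by a small gap (-0.85 ± 0.30, adjusted p = 0.0423). HYOU1 (-1.70 ± 0.53), CRELD2 (-1.77 ± 0.60) and MANF (-1.59 ± 0.45), secretory-pathway proteins known to be induced by ER stress, were also called, as were DNAJB11 (-1.35 ± 0.41), SIL1, an exchange factor for HSPA5 (-1.04 ± 0.32), and DNAJC10, a reductase with a J domain (-0.58 ± 0.18).

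Among folding enzymes of glycoproteins, UGGT1, which re-tags misfolded glycoproteins, fell (-0.72 ± 0.24, adjusted p = 0.0302), whereas the lectins CALR (-0.67 ± 0.27, adjusted p = 0.0749) and CANX (-0.43 ± 0.18, adjusted p = 0.0897) were not called. ERO1B was called with 5.11, 2.77 and 3.69 in Ra cells, against 8.16, 7.28 and 4.20 in vehicle cells, overlapping and with a Ra mean under log2 4 (-2.69 ± 0.79). PDIA6, a disulfide isomerase, fell by 0.77 on the log2 scale, while the isomerases P4HB (-0.35 ± 0.20) and PDIA3 (-0.47 ± 0.27) and the oxidase ERO1A (-0.43 ± 0.28) were not called.

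In the degradation group SEL1L had 10.69, 9.84 and 10.20 in Ra cells, against 12.78, 11.96 and 10.51 in vehicle cells (-1.51 ± 0.43, adjusted p = 0.0132), with overlap at the lowest vehicle array. DERL2, a channel-like component (-1.07 ± 0.33), SELENOS, which anchors the VCP ATPase (-1.05 ± 0.33), EDEM3, a mannosidase that marks glycoproteins for disposal (-1.04 ± 0.31), and DERL1 (-0.68 ± 0.18) were called. EDEM2 (-0.79 ± 0.31), the lectin OS9 (-0.43 ± 0.21) and DERL3 (0.33 ± 0.21), which lay close to the filter with means of 4.96 in Ra cells and 4.63 in vehicle cells, were not called.

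Translocation genes moved less than the Hsp70 and Hsp90 group and the degradation group. Their median of -0.60 was near those of the lectin and disulfide groups. SEC61B had 12.17, 11.61 and 12.34 in Ra cells, against 13.00, 12.50 and 12.36 in vehicle cells, apart by a small gap (-0.58 ± 0.17, adjusted p = 0.0179). SEC61A1, the pore subunit (-0.93 ± 0.32), SEC62 (-0.75 ± 0.21) and SEC63 (-0.70 ± 0.23), which assist post-translational entry, and SSR3, a translocon-associated subunit (-0.60 ± 0.18), were called. SSR1 (-0.43 ± 0.21) and SSR2 (-0.07 ± 0.18) were not. Across the genes with further probe sets, all 61 other probe sets of 27 members read lower in Ra cells, with a median difference of -0.73. The median over all genes was -0.18. These probe sets lie on the same arrays, including Ra 48 h replicate 2, and so are not independent of its low level. The share of all probe sets that read lower was not counted.

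The Ra 48 h count rested on a few arrays. Without vehicle replicate 1 it was 4, without vehicle replicate 2 it was 11, and without Ra replicate 2 it was 4. Among all genes tested, 785, 916 and 394 fell in these fits. With all arrays 1769 genes (15.6%) fell, with 26 members among them. Without Ra replicate 2 the members' median was -0.63 and the all-gene median was 0.00256. Without any other array the count was 22 to 32. The median was -0.57 without vehicle replicate 1 and -1.20 without vehicle replicate 3. Set against each other number by number, Ra and vehicle arrays had member medians of -1.07, -1.31 and -0.06, and 15 of 37 genes were higher in Ra than in vehicle replicate 3, the vehicle array with low ER genes. In the same comparison 1 of the 3 fibroblast markers fell and 1 of the 5 proximal tubule markers rose, and their part in the result was not tested. The part of the low upper quartile of Ra replicate 2 in the individual calls was not tested beyond these values.

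**Figure D4:**
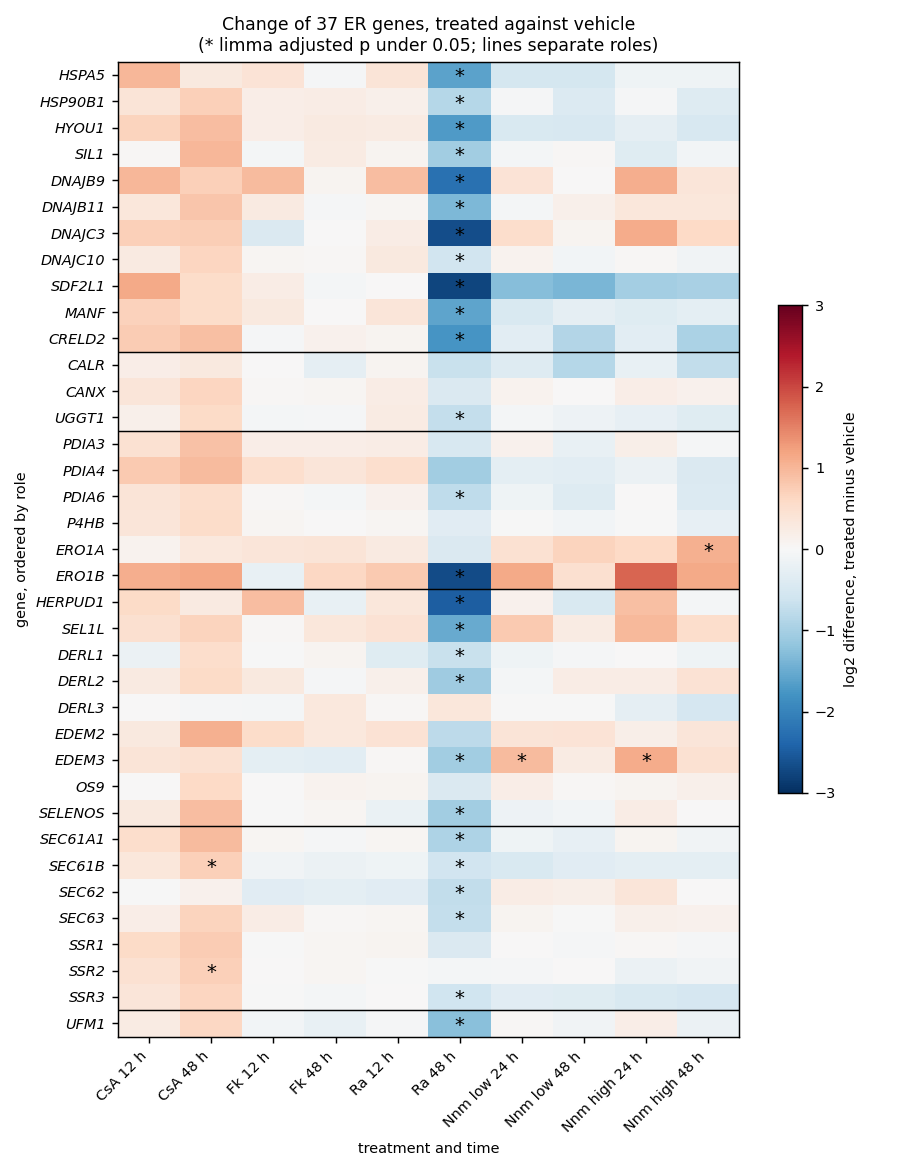
Log2 difference of each of the 37 ER genes, treated minus vehicle, in the 10 treatment comparisons; red is higher and blue lower in treated cells, stars mark a limma adjusted p under 0.05, and lines separate the roles. Ra at 48 h holds 26 of the stars, all in blue, while CsA at 48 h is red for 36 genes with 2 stars.

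Fk and Ra share the vehicle arrays, and their treated cells were compared directly at matched times. At 48 h, 26 of 37 genes were higher in Fk than in Ra cells and 0 lower, where 15.2% of all genes were higher, and the members' median was 0.89. HSPA5 had 15.65, 15.50 and 14.64 in Fk cells, against 14.48, 13.00 and 13.57 in Ra cells, without overlap (1.58 ± 0.32, adjusted p = 0.00145). ERO1B differed by 3.32 ± 0.79, DNAJC3 by 2.66 ± 0.57, DNAJB9 by 2.31 ± 0.53, HERPUD1 by 2.27 ± 0.50, SEL1L by 1.85 ± 0.43, HSP90B1 by 1.07 ± 0.30 and SDF2L1 by 2.70 ± 0.89, all called. SEC61B was not called (0.40 ± 0.17, adjusted p = 0.107). HSPA5, DNAJC3, HERPUD1 and UFM1 were called whichever array was left out. The count was 4 without Fk replicate 1, 14 without Fk replicate 2, 5 without Ra replicate 2 and 11 with centred arrays. HSP90B1 and SDF2L1 were among the genes not called with centred arrays.

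At 12 h, 0 of 37 genes were called between Fk and Ra cells by limma, 0 had an unadjusted p under 0.05, and 0.00881% of all genes were called. HSPA5 had 14.41, 13.90 and 13.89 in Fk cells, against 14.29, 13.71 and 14.15 in Ra cells (0.02 ± 0.32, 95% interval -0.64 to 0.67). The largest differences were those of ERO1B (-1.0 ± 0.79, 95% interval -2.61 to 0.60), DNAJC3 (-0.67 ± 0.57) and HERPUD1 (0.59 ± 0.50).

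Against vehicle, Fk gave 0 called members at 12 h and at 48 h by limma, 0 with an unadjusted p under 0.05 at either time, and 0% of all genes called at both. At 12 h the largest differences were those of DNAJB9 (0.95 ± 0.53), HERPUD1 (0.93 ± 0.50) and EDEM2 (0.56 ± 0.31). At 48 h HSPA5 had 15.65, 15.50 and 14.64 in Fk cells, against 15.68, 15.66 and 14.53 in vehicle cells (-0.03 ± 0.32, 95% interval -0.68 to 0.63). SDF2L1 had 12.13, 11.14 and 6.87 in Fk cells, against 12.22, 11.08 and 6.99 in vehicle cells, and replicate 3 was low in both groups. Set against each other number by number, Fk and vehicle arrays at 48 h had member medians of 0.04, 0.05 and 0.07. The SEs and intervals given here take no account of this match by number. The largest differences at 48 h were those of ERO1B (0.63 ± 0.79), ERO1A (0.40 ± 0.28) and PDIA4 (0.36 ± 0.39).

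Ra at 12 h gave 0 called members by limma and 0 with an unadjusted p under 0.05, where 0.0704% of all genes were called. DNAJB9 (0.93 ± 0.53), ERO1B (0.77 ± 0.79) and PDIA4 (0.51 ± 0.39) had the largest differences. The Ra effect at 48 h minus that at 12 h was tested as an interaction: 6 of 37 genes were lower, where 3.31% of all genes were, with a members' median of -0.98. HSPA5 (-2.0 ± 0.46, adjusted p = 0.0148), HERPUD1 (-2.83 ± 0.70, adjusted p = 0.0219), DNAJC3 (-2.88 ± 0.81, adjusted p = 0.0395), DNAJB9 (-3.16 ± 0.75, adjusted p = 0.0194), DNAJC10 and UFM1 (-1.21 ± 0.29, adjusted p = 0.0181) made up the 6. None of the 6 was called whichever array was left out: the count was 0 without vehicle 48 h replicate 1 or 2, Ra 12 h replicate 1 or Ra 48 h replicate 2, 1 without vehicle 12 h replicate 2, 15 without Ra 48 h replicate 1 and 23 without vehicle 48 h replicate 3. With centred arrays DNAJC3, DNAJC10 and UFM1 were not called.

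CsA raised few ER genes past the test, although nearly all read higher. At 48 h, 36 of 37 differences were above 0 with a median of 0.66, against 0.00 over all genes tested; without vehicle replicate 1, the low array, the median was 0.39. In all, 2 genes rose and 0 fell, where 0.299% of all genes rose. SEC61B had 12.96, 13.36 and 12.99 in CsA cells, against 12.09, 12.65 and 12.41 in vehicle cells, without overlap (0.72 ± 0.17, adjusted p = 0.029). SSR2, a translocon-associated subunit, had 12.78, 13.16 and 12.92 in CsA cells, against 11.71, 12.67 and 12.31 in vehicle cells, also apart (0.72 ± 0.18, adjusted p = 0.0359). In this set the replicate numbers pair the arrays, and with the number as a block 11 genes rose, as did 1.45% of all genes: SEC61B, SSR2, SEC61A1, SSR1 and SSR3 of the translocon, the isomerases PDIA3 and P4HB, and SIL1, DNAJC10, CANX and EDEM2. By pair, the members' median difference was 0.90, 0.56 and 0.51, with 37, 35 and 35 genes higher in CsA cells.

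The genes with the largest differences at 48 h were ERO1B (1.17 ± 0.79), not called in either fit, and EDEM2 (1.07 ± 0.31), SIL1 (1.00 ± 0.32) and SEC61A1 (0.95 ± 0.32), called only with the block. HSPA5 had 15.35, 15.63 and 15.67 in CsA cells, against 14.83, 15.40 and 15.56 in vehicle cells, with overlap (0.29 ± 0.32, adjusted p = 0.85). HSP90B1 had 13.51, 14.22 and 13.81 in CsA cells, against 12.27, 13.76 and 13.39 in vehicle cells (0.71 ± 0.30, adjusted p = 0.303). SDF2L1 (0.54 ± 0.89), HERPUD1 (0.27 ± 0.50), DNAJC3 (0.73 ± 0.57), DNAJB9 (0.71 ± 0.53) and SEL1L (0.67 ± 0.43) were not called either. The count was 0 without CsA replicate 2 or 3 or vehicle replicate 1 or 3, 6 without CsA replicate 1 and 5 without vehicle replicate 2.

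At 12 h CsA gave 0 called members by limma, 4 with an unadjusted p under 0.05, and 0% of all genes called, while 35 of 37 differences were above 0 with a median of 0.37, against -0.01 over all genes. SDF2L1 had 8.06, 8.05 and 8.07 in CsA cells, against 6.91, 6.95 and 6.90 in vehicle cells. The arrays of the groups lay far apart, yet the shared spread of the fit gave 1.14 ± 0.89 (adjusted p = 1). HSPA5 had 14.24, 14.08 and 13.60 in CsA cells, against 13.06, 13.09 and 12.79 in vehicle cells, also without overlap (0.99 ± 0.32, adjusted p = 1). ERO1B (1.10 ± 0.79) and DNAJB9 (1.00 ± 0.53) came next to SDF2L1 in size. The CsA effect at 48 h minus that at 12 h gave 0 called members by limma, 2 with an unadjusted p under 0.05, and 0% of all genes called; SIL1 (0.98 ± 0.45), EDEM2 (0.77 ± 0.44) and HSPA5 (-0.71 ± 0.46) had the largest differences.

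The effects of compounds at 48 h, each relative to the vehicle cells of its own set, were set against each other as differences of differences. The CsA effect was above the Ra effect for 33 of 37 genes and below it for 0, where 11.8% of all genes were above, with a members' median of 1.56, against 0.19 over all genes. UFM1 (1.88 ± 0.29, adjusted p = 0.00015), SEC61B (1.30 ± 0.25, adjusted p = 0.000684), DNAJC3 (3.38 ± 0.81, adjusted p = 0.00482) and HSPA5 (1.89 ± 0.46, adjusted p = 0.00497) were among the 18 called whichever array was left out. SDF2L1 was not called (3.29 ± 1.26, adjusted p = 0.0679). The count was 20 without vehicle replicate 1 of the CsA set and 18 without vehicle replicate 1 of the Fk and Ra set. The CsA effect differed from the Fk effect for 0 of 37 genes by limma, with 9 at an unadjusted p under 0.05, a members' median of 0.61, and 0% of all genes called. The median ran from 0.32 without Fk replicate 3 to 0.96 without vehicle replicate 3 of the Fk and Ra set. SEC61A1 (0.99 ± 0.45, 95% interval 0.09 to 1.90), SEC61B (0.90 ± 0.25, 95% interval 0.40 to 1.40) and SELENOS (0.88 ± 0.47) had the largest differences. These comparisons span sets, so compound and set cannot be told apart.

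Nnm gave few calls among the ER genes. At the low dose for 24 h, 1 gene rose and 0 fell, where 3.58% of all genes rose. EDEM3 had 9.46, 9.19 and 9.69 in low-dose cells, against 8.43, 8.69 and 8.39 in vehicle cells, without overlap (0.94 ± 0.31, adjusted p = 0.0498). It was not called with the mean of its probe sets (0.89) or with no filter on low values. At the high dose for 24 h, 1 gene rose and 0 fell, where 10.5% of all genes rose: EDEM3 had 9.82, 9.08 and 9.95 in high-dose cells, above every vehicle array (1.11 ± 0.31, adjusted p = 0.00898). In this set too the replicate numbers pair the arrays. With the number as a block ERO1A, ERO1B and SEL1L also rose at the high dose for 24 h and SSR3 fell, so that the calls were 4 higher and 1 lower, where 15.6% of all genes rose and 18.1% fell.

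High-dose replicate 2 read lower than replicates 1 and 3 for several genes at 24 h. ERO1B had 6.77, 4.53 and 6.72 in high-dose cells, against 4.37, 3.87 and 4.53 in vehicle cells, which brought the groups together at 1 array (1.75 ± 0.79, adjusted p = 0.107). DNAJC3 had 9.98, 8.52 and 10.10 in high-dose cells, against 8.27, 8.46 and 8.50 in vehicle cells (1.12 ± 0.57, adjusted p = 0.156). The count at the high dose for 24 h was 6 without that array and 0 without high-dose replicate 1 or 3. The count over all genes moved the same way. It was 1893 higher without high-dose replicate 2, against 1197 (10.5%) with all arrays. Without high-dose replicates 1 and 3 it was 320 and 447 higher. At the low dose for 24 h EDEM3 was not called without any 1 of the vehicle arrays or without low-dose replicate 1 or 3.

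At 48 h the low dose gave 0 called members by limma, 2 with an unadjusted p under 0.05, and 5.22% of all genes called in either direction. SDF2L1 (-1.36 ± 0.89), CRELD2 (-0.87 ± 0.60) and CALR (-0.84 ± 0.27) had the largest differences. With the block CALR fell (adjusted p = 0.0103) and ERO1A rose (adjusted p = 0.0182), where 6.75% of all genes rose and 6.27% fell. Without low-dose replicate 2 there was 1 call, lower.

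The high dose for 48 h gave 1 higher and 0 lower, where 8.89% of all genes were higher. ERO1A, an oxidase also known as a hypoxia-responsive gene, had 11.54, 10.20 and 11.27 in high-dose cells, against 9.85, 9.81 and 10.17 in vehicle cells, with a small gap between the groups (1.06 ± 0.28, adjusted p = 0.00845). With the mean of its probe sets the difference was 0.40 and not called, and under that setting 0 members were higher and 3 lower. With the block CALR (-0.74 ± 0.22) and SSR3 (-0.50 ± 0.15) also fell, where 12.9% of all genes did. The count was 0 without high-dose replicate 1, 1 higher and 1 lower without replicate 2, and 1 lower with 0 higher without replicate 3, so the ERO1A call ended without replicate 1 or 3.

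The always-named members gave no further call under Nnm without the block. HSPA5 had 12.30, 12.24 and 12.72 in low-dose cells at 24 h, against 12.86, 12.82 and 13.18 in vehicle cells, apart but not called (-0.54 ± 0.32, adjusted p = 0.329). SDF2L1 read lower at both doses and times, by -0.97 to -1.36 on the log2 scale, with adjusted p from 0.421 to 0.495, and in none of the 4 comparisons did the groups overlap. Its lowest array, low-dose 48 h replicate 1, read 3.71, under log2 4. With an array left out, its low-dose difference at 48 h ran from -1.68 to -0.80, so the size is uncertain. SEC61B had 11.65, 11.58 and 11.59 in low-dose cells at 24 h, against 12.07, 11.93 and 12.18 in vehicle cells (-0.45 ± 0.17, adjusted p = 0.0971).

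Between the doses of Nnm, 0 of 37 genes were called at 24 h and at 48 h by limma, with 0 and 1 at an unadjusted p under 0.05, and 0.00881% and 0.0176% of all genes called. At 24 h HERPUD1 (0.75 ± 0.50), DNAJB9 (0.67 ± 0.53) and ERO1B (0.61 ± 0.79) had the largest differences, high minus low. At 48 h they were those of ERO1B (0.65 ± 0.79), DNAJC3 (0.52 ± 0.57) and DERL3 (-0.50 ± 0.21).

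Genes that work beside these were counted in 5 further lists, in the main fit of all 48 arrays only. Whether these counts hold with an array left out or with centred arrays was not tested. The Ra counts at 48 h include replicate 2, the array of low upper quartile. In Ra cells at 48 h, of 13 measured sensors and factors of the unfolded protein response 8 fell and 1 rose, where 15.6% of all genes fell, with a median of -1.45, against -0.18 over all genes. XBP1 had 9.36 in Ra cells, against 11.16 in vehicle cells (-1.81 ± 0.30, adjusted p = 0.000171), ERN1, the sensor that splices it, differed by -3.67 ± 0.76, DDIT3, the factor CHOP, by -3.50 ± 0.79, and MBTPS1, the protease that cleaves ATF6, by 0.49 ± 0.15. Of 25 genes of oligosaccharyltransferase, signal peptidase and signal recognition 5 fell and 1 rose (median -0.30), and of 18 extraction and ubiquitination genes 4 fell (-0.43), shares near the 15.6% of all genes. Of 4 ufmylation partners 2 fell (-0.65), DDRGK1 by 1.08 and UFSP2 by 1.00 on the log2 scale, and of 18 retrieval and export genes 6 fell (-0.38), SEC24D, a coat subunit, by 1.81.

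In CsA cells at 48 h, where 0.299% of all genes rose, 0 of the 13 sensors and factors were called (median 0.12), while of the 25 glycosylation, signal peptidase and recognition genes 3 rose (RPN1, OSTC and SSR4, median 0.49) and COPG1 rose among the 18 retrieval and export genes. In vehicle cells at 48 h against 12 h, 9 of the 13 sensors and factors rose in each of the CsA set (median 1.53, where 6.12% of all genes rose) and the Fk and Ra set (1.48, where 10.1% did). In high-dose Nnm cells at 24 h, 3 of the 13 rose, where 10.5% of all genes did: ATF6 (0.81 ± 0.24), ATF4 (0.76 ± 0.28) and DDIT3 (2.19 ± 0.79).

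Over all 48 arrays, the range of a member's level was widest for SDF2L1, 8.51 on the log2 scale, and for ERO1B, 7.24, and narrowest for CANX, 1.53, and P4HB, 1.57. The highest array was a CsA 48 h array for 22 members, a Fk 48 h array for 8 and a vehicle 48 h array of the Fk and Ra set for 7. The lowest array was Ra 48 h replicate 2 for 13 members, the array of low upper quartile, and a high-dose Nnm 48 h array for 6.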

How the data were processed

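HK-2 RNA was profiled on 48 arrays after column purification and biotin labelling, per the labels' protocols. The deposited table holds log2 expression values; GCRMA is the tool named in the submitters' processing notes, its version not given in the sources used here, and whether all arrays were normalized together is not stated. These log2 values were used as the authors deposited them. Of 54675 probe sets, 41091 carried 1 gene symbol in the platform annotation, 20960 of these were above log2 4 in at least 3 arrays, and each gene was taken by its probe set of highest mean, giving 11356 genes.

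limma 3.58.1 in R 4.3.3 (lmFit, eBayes) was run once on the 48 arrays with a mean for each of the 16 groups, so that they share an estimate of the spread. Two-sided p-values were adjusted within each of 24 comparisons, and the code was tested on simulated data. The labels call the replicates biological but say nothing of separate cultures, so p-values measure the spread between these samples. No arrays were identical.

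The members and lists were chosen with earlier results of these data known. Named in all comparisons were HSPA5, HSP90B1, HERPUD1, DNAJC3, DNAJB9, SDF2L1, SEC61B and SEL1L; per comparison the called members of largest change, up to 3 per role, or the 3 largest where none was called, were added. Other genes named were chosen after their values were seen.

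Pairing was checked from deviations from group means: all 18 same-numbered pairs of the CsA set correlated above 0.1 (0.243 to 0.926), as did all 45 of the Nnm set (0.138 to 0.786). Blocked values are given there where they change a named call or move a count by over 1.5 times. Alternatives were the block, median-centred arrays, quantile normalization, no filter, the mean of all probe sets, the arrays of the set alone, and each array left out.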

Additional observations from a re-analysis of the deposited data

Results flagged for a closer look

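When the difference between times was itself tested with limma, 6 of 37 ER genes had a lower Ra effect at 48 h than at 12 h. Of all genes 3.31% did. Among the 6, HSPA5 differed by -2.0, UFM1 by -1.21 and DNAJB9 by -3.16 on the log2 scale. None of the 6 was called whichever array was left out, and DNAJC3, DNAJC10 and UFM1 were not called with centred arrays. The effects of CsA and Ra at 48 h differed for 33 genes, all with a higher CsA effect, which 11.8% of all genes had. UFM1 stood at 1.88, SEC61B at 1.30 and DNAJC10 at 1.24 on the log2 scale. The groups behind these differences hold vehicle cells whose own levels moved between 12 h and 48 h, and the CsA and Ra effects come from different array sets.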

How the results depend on the processing

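Among 102 member changes recomputed under the alternatives, 0 took the opposite sign where a call was involved, but 11 of 612 values with all arrays and 40 of 612 with an array left out, all uncalled, had the opposite sign; 60 and 80 values lost their call. With the replicate number as a block the calls were 11 for CsA at 48 h, 2 for low-dose Nnm at 48 h, 5 and 3 for high-dose Nnm at 24 h and 48 h. In the Fk and Ra set only 19 of 45 same-numbered pairs correlated above 0.1 (-0.178 to 0.759), so the numbers were not taken to pair the arrays. That check pooled both times and all groups of the set, and replicate 3 was low in both Fk and vehicle cells at 48 h. In that set the replicate block gave 30 for Ra at 48 h, where 22.6% of all genes fell. It gave 31 for Fk against Ra at 48 h, where 22.8% were higher, and 16 for the Ra effect between times, where 10.1% were lower. Centring moved the median of all genes in Ra at 48 h from -0.18 to 0.07. With centred arrays the counts were 7 (CsA 48 h), 11 (Ra 48 h), 1 (low-dose Nnm 48 h), 2 and 3 (high-dose Nnm 24 h and 48 h), 11 (Fk against Ra 48 h) and 3 (Ra effect between times). Quantile normalization gave 16 (Ra 48 h), 1 lower (low-dose Nnm 48 h) and 2, 1 higher and 1 lower (high-dose Nnm 48 h). The mean of all probe sets gave 4 (CsA 48 h), 2, both lower (low-dose Nnm 48 h), 2, 1 higher and 1 lower (high-dose Nnm 24 h), and 3, all lower (high-dose Nnm 48 h); for low-dose Nnm at 24 h it gave 1 lower and 0 higher, so the EDEM3 call at the low dose and the ERO1A call at the high dose were lost. A fit of the set alone gave 0 (CsA 48 h), 5 (Ra 48 h), 2 and 2 (low-dose Nnm 24 h and 48 h), 6 and 4 (high-dose Nnm 24 h and 48 h). No filter gave 0 for low-dose Nnm at 24 h. The causes were not tested.

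With each array left out in turn the counts ran from 0 to 6 (CsA 48 h), 4 to 32 (Ra 48 h), 0 to 1 (low-dose Nnm at both times), 0 to 6 and 0 to 2 (high-dose Nnm 24 h and 48 h), 4 to 30 (Fk against Ra 48 h), 0 to 23 (Ra effect between times), 18 to 35 (CsA against Ra effect), 10 to 26 and 7 to 26 (vehicle time in the CsA set and in the Fk and Ra set) and 6 to 25 (Fk cells between times). With 3 arrays a group, DERL3 and ERO1B near log2 4, and SDF2L1 under it in low-dose Nnm 48 h replicate 1, small differences could not be resolved.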

Other observations

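The 61 other probe sets of 27 members were not used above. In CsA cells at 48 h 57 of them had the sign of the probe set used, with a median difference of 0.745, and at 12 h 55 did, with a median of 0.306. In vehicle cells at 48 h against 12 h the matching counts were 56 in the CsA set and 57 in the Fk and Ra set. For Fk at 48 h 37 of 61 had the same sign.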
